A study of Mus musculus with 23 samples.

Results

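The PGC-1 coactivators and the nuclear receptors they work with were read in mouse hindlimb muscle on 9 probe sets, chosen as every probe set whose gene symbol in the platform annotation is exactly Ppargc1a, Ppargc1b, Ppara, Ppard or Esrra. They are 9 of the 22626 probe sets used and 5 of the 12393 genes named by a single symbol. Ppargc1a has 5 probe sets and each of the other 4 genes has 1. All 9 lay above the filter on low values (a log2 signal over 5.83, the 40th percentile of all deposited values, reached on 4 or more arrays). Ppargc1a 1460336_at and 1437751_at, Ppargc1b, Ppara and Esrra exceeded that value on all 23 arrays, Ppargc1a 1434100_x_at on 18, 1434099_at on 13, 1456395_at on 12 and Ppard on 5.

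PGC-1alpha, the product of Ppargc1a, and PGC-1beta, the product of Ppargc1b, do not bind DNA themselves: they dock on transcription factors and bring in the machinery that opens chromatin and starts transcription. In skeletal muscle they are known as inducers of mitochondrial biogenesis and oxidative metabolism, and contraction raises Ppargc1a transcription through cyclic AMP, calcium and stress kinase signals. Among their partners, PPARalpha (Ppara) and PPARdelta (Ppard) are fatty acid sensing receptors that bind DNA with RXR and switch on genes of fatty acid use. ERRalpha (Esrra) is an orphan receptor of genes for the respiratory chain and the citric acid cycle.

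The arrays came from 2 experiments in female C57BL/6J mice aged 77 days, all without genetic change per the labels. In the flight experiment, gastrocnemius was taken from mice flown on the space shuttle for 11 days and 19 hours (spaceflight, n = 4) and from mice housed over the same time on the ground in an animal enclosure module, a shuttle habitat with matched climate (ground AEM, n = 4). In the calf experiment, whole calf muscle was taken after 12 days of tail suspension and then 3.5 hours of weight bearing (reloaded, n = 5), after 12 days of tail suspension alone (suspension, n = 5), and from untreated mice in normal cages (control, n = 5). The reloaded mice were thus suspended too. The interval between landing and dissection is not stated in the labels. Titles, source names and series design decided the groups. The free text beside each flight sample names the opposite group: it describes flown mice under AEM titles and enclosure housing under spaceflight titles. Were that text correct, the flight differences below would change sign, and each contrast of flight with a calf effect would be a sum. Replicates carry numbers but are not called separate mice, and p-values reflect the spread between arrays, which may be technical.

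The median log2 signal per array was 6.15 to 6.23 in the flight experiment and 6.28 to 6.39 in the calf experiment. The array range (75th minus 25th percentile) was 2.75 to 2.91 in the flight experiment and 2.20 to 2.46 in the calf experiment, so levels were set side by side only within an experiment. Suspension replicate 8 had the lowest median correlation with its own group, 0.985. All 10 markers of muscle fibres lay above the filter, at a mean of 13.4 to 13.6 log2 units on every array. Of 6 cardiac markers 3 lay above it, while Myh6, Nppa and Myl7 lay below. Of 7 measured brown fat markers 5 lay above it, while Cidea and Zic1 lay below. A lower value in whole muscle can come from fewer cells of a type or from less RNA per cell, and these cannot be told apart.

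Promoter windows of the members, from 250 bases before to 50 after the gene start, were read from RefSeq on GRCm38.p6, and 4 of the 5 genes matched; Ppargc1b is named only. The windows of Ppargc1a (chr5:51567676-51567975, minus strand) and Ppara (chr15:85735526-85735825, plus strand) are printed because these were the members whose signal differed between groups. Capitals mark TGACG, the core of the cyclic AMP response element, read on either strand. CREB is known to act on Ppargc1a through such an element, and whether that site lies in this window was not checked. Sequence at any other start of a gene was not searched.
Ppargc1a: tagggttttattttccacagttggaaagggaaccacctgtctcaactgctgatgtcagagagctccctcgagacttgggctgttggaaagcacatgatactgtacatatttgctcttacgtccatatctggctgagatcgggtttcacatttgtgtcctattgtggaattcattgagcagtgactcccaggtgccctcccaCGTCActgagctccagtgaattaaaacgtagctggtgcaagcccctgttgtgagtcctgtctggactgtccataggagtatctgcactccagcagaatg
Ppara: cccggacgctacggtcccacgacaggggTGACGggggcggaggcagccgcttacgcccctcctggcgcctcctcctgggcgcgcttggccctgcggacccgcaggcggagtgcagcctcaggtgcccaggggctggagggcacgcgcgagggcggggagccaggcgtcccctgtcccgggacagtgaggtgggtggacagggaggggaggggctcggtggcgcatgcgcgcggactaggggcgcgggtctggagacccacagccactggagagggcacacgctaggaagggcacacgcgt
The Ppargc1a window holds TGACG at 1 position, on the minus strand at -49 from the gene start, and the Ppara window at 1 position, on the plus strand at -222. Ppard (window on chromosome 17) holds it at -4 and Esrra (chromosome 19) does not hold it. TGACG is found in 20.8% of the 32851 windows of the table. The muscle E-box CANNTG, which reads the same on both strands, has 6 matches in Ppargc1a, 1 in Ppara, 2 in Ppard and 2 in Esrra, and is in 72.3% of all windows. The full element TGACGTCA, which contains TGACG on both strands, the ERR element TNAAGGTCA and the receptor core AGGTCA inside it, the PPAR element known as DR1 (2 copies of AGGTCA with 1 base between) and the glucocorticoid core AGAACA have no match in any of the 4 windows. They are in 1.79%, 1.28%, 16.3%, 0.0396% and 19.0% of all windows, in that order. GC content was 48.7% in the Ppargc1a window and 74.7% in the Ppara window. These matches describe letters in short windows and say nothing about binding or about sites outside the windows.

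In spaceflight, Ppargc1a fell on all 5 of its probe sets and Ppara, the fatty acid receptor, fell on its only one. Ppargc1b, Ppard and Esrra did not pass the test. Of the 9 member probe sets, 6 fell and 0 rose, and the spaceflight and ground AEM values of those 6 did not overlap. Among all 14849 probe sets tested, 6.36% were called in either direction (483 higher and 462 lower, limma with Benjamini-Hochberg adjustment, adjusted p under 0.05) and 12.9% did not overlap between the groups. Of the 6 member probe sets, 5 are repeat readings of Ppargc1a. By the probe set of each gene with the highest mean, 2 of the 5 member genes were called, against 5.51% of all genes.

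On Ppargc1a 1460336_at, the probe set with the highest mean signal of the gene, spaceflight replicates 8, 9, 10 and 11 read 8.37, 8.34, 8.11 and 8.11 log2 units, and ground AEM replicates 1, 2, 3 and 4 read 9.46, 9.71, 9.69 and 8.98. Even the highest spaceflight array lay under the lowest ground AEM array. The means were 8.23 ± 0.14 in spaceflight and 9.46 ± 0.34 in ground AEM (SD, n = 4 each), a log2 difference of -1.23 ± 0.14 (SE, limma adjusted p = 0.000471) or 2.34-fold lower. On 1437751_at the same arrays read 7.39, 7.71, 7.58 and 7.27 in spaceflight against 8.33, 8.26, 8.76 and 8.09 in ground AEM, a difference of -0.87 ± 0.14 (limma adjusted p = 0.00258). The gap between the groups was again free of overlap. On 1456395_at spaceflight arrays read 5.75, 5.73, 5.58 and 5.37, all under the filter value, and ground AEM arrays 6.51, 6.39, 7.43 and 6.40, all over it, with ground AEM replicate 3 standing far above the other 3. The difference was -1.08 ± 0.20 (limma adjusted p = 0.00606). This probe set passed the filter through the groups where it is high. The remaining probe sets moved less: 1434099_at averaged 6.33 ± 0.16 in spaceflight and 6.90 ± 0.04 in ground AEM (-0.58 ± 0.09, limma adjusted p = 0.00242), and 1434100_x_at averaged 6.70 ± 0.15 and 7.24 ± 0.14 (-0.55 ± 0.10, limma adjusted p = 0.00530). The suffix x marks a probe set some of whose probes can match other transcripts.

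**Figure D1:**
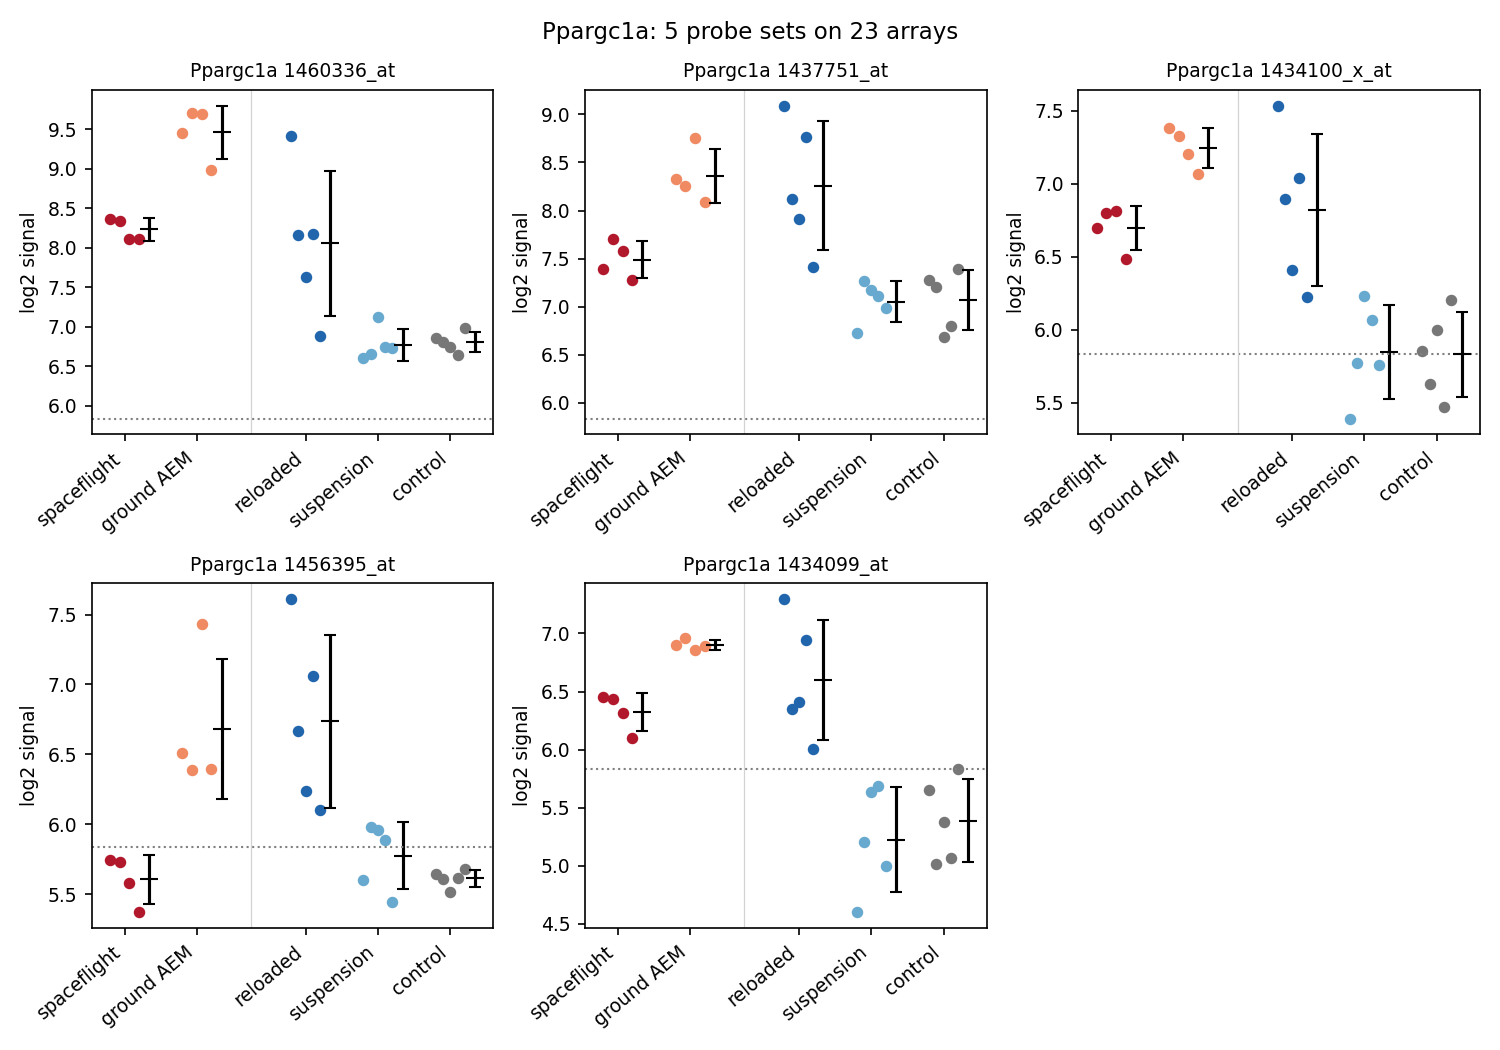
Log2 signal of the 5 Ppargc1a probe sets on each of the 23 arrays, 1 point per array, with the group mean and SD as a black bar and the filter value of 5.83 as a dotted line; the grey line parts the flight experiment (left) from the calf experiment (right). Every spaceflight point lies under every ground AEM point in all 5 panels, and the 5 reloaded arrays spread more widely than the suspension or control arrays.

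Ppara read 7.77, 7.07, 7.83 and 7.30 log2 units in spaceflight replicates 8, 9, 10 and 11, and 8.29, 8.35, 8.57 and 8.02 in ground AEM replicates 1 to 4. All spaceflight arrays were lower than all ground AEM arrays. The means of 7.49 ± 0.37 in spaceflight and 8.31 ± 0.23 in ground AEM (SD, n = 4 each) differed by -0.82 ± 0.16 (SE, limma adjusted p = 0.0111), or 1.76-fold. Leaving out any of the 8 arrays kept the 6 calls, with adjusted p of at most 0.0385 for Ppara and 0.0234 for the Ppargc1a probe sets. Fitting all 5 groups together, which brings in the wide spread of the reloaded arrays, ended the calls of 1434100_x_at (adjusted p = 0.107) and 1434099_at (adjusted p = 0.131), and none of the 6 passed a test against a change of 1.5-fold.

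The members that did not pass in flight had 95% intervals that spanned 0. Ppargc1b averaged 8.14 ± 0.18 in spaceflight and 8.13 ± 0.12 in ground AEM (SD, n = 4 each), and its log2 difference lay between -0.21 and 0.22 (95% interval). Esrra averaged 7.50 ± 0.20 in spaceflight and 7.65 ± 0.18 in ground AEM, with an interval from -0.40 to 0.10. Ppard averaged 5.23 ± 0.24 in spaceflight and 5.27 ± 0.27 in ground AEM, with an interval from -0.35 to 0.27, and all 8 of these arrays read below the filter value. Across the 23 arrays, with group means removed, Ppard correlated at -0.75 with the array range, against -0.19 to 0.48 for the other 8 probe sets. Whether the arrays were normalized together is not given, and the part of normalization and array range in the Ppard values was not tested.

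Markers of other cells moved in the flight comparison as well. Of 7 tested adipocyte markers 5 rose, and the mean of the 8 measured ones was 7.59 to 7.98 log2 units over the spaceflight arrays and 6.97 to 7.14 over the ground AEM arrays. Of 8 endothelial markers 2 fell, with means of 7.24 to 7.36 in spaceflight and 7.43 to 7.52 in ground AEM. Of 8 tested tendon and fibroblast markers 2 fell, and the mean of the 9 measured ones was 8.02 to 8.50 in spaceflight and 8.28 to 9.12 in ground AEM. Of 8 slow fibre markers 1 fell, with means of 10.6 to 11.2 in spaceflight and 10.8 to 11.1 in ground AEM. Among brown fat markers, 5 of the 7 measured were tested and the 1 that fell is Ppara itself. Without Ppara, the means of the other 6 were 6.36 to 6.47 in spaceflight and 6.38 to 6.42 in ground AEM, and the ranges overlapped. Of 10 muscle fibre, 6 macrophage, 4 Schwann cell and 3 cardiac markers 0 were called by limma, with 0, 1, 0 and 0 at an unadjusted p under 0.05. The part of these cells in the member values was not tested.

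Hindlimb suspension for 12 days left all 9 member probe sets short of the threshold. In limma 0 of 9 were called and 0 of 9 had groups that did not overlap, where 0.377% of all probe sets were called and 1.95% did not overlap. At an unadjusted p under 0.05 there were 2, Ppara and Esrra. Ppargc1a 1460336_at read 6.61, 6.65, 7.12, 6.74 and 6.73 log2 units in suspension replicates 8, 9, 11, 25 and 30, and 6.86, 6.81, 6.74, 6.64 and 6.98 in control replicates 1, 2, 19, 21 and 22. The groups lay over each other, with suspension replicate 11 above the others. The log2 difference of this probe set was -0.04, with a 95% interval from -0.62 to 0.55, and the other 4 Ppargc1a probe sets differed by -0.16 to 0.16. The 3 calf groups share 1 estimate of the spread, to which the reloaded arrays contribute.

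Ppara averaged 6.61 ± 0.18 in suspension and 6.89 ± 0.28 in control (SD, n = 5 each), a difference of -0.29 ± 0.12 (SE, limma adjusted p = 0.512). Esrra read 6.97, 7.26, 7.26, 7.47 and 7.46 in suspension replicates 8, 9, 11, 25 and 30, and 7.42, 7.37, 7.51, 7.62 and 7.60 in control replicates 1, 2, 19, 21 and 22. The suspension arrays reach lower, and the top of their range lies within that of control. The difference was -0.22 ± 0.09 (limma adjusted p = 0.458). Ppargc1b averaged 8.30 ± 0.07 in suspension and 8.45 ± 0.09 in control (-0.15, limma adjusted p = 0.727), and Ppard differed by -0.04 (95% interval from -0.31 to 0.22). Schwann cell markers (1 of 4 higher), slow fibre markers (2 of 8 lower) and tendon markers (1 of 8 lower) were called in the same comparison. Schwann cell means were 8.54 to 9.04 in suspension and 7.75 to 8.12 in control, and slow fibre means 11.1 to 11.4 in suspension and 11.6 to 11.7 in control. Over the 9 measured tendon markers the means were 8.44 to 9.02 in suspension and 8.97 to 9.28 in control. Of 7 tested adipocyte markers 0 were called by limma, with 4 at an unadjusted p under 0.05. The means of the 8 measured ones were 7.48 to 7.82 in suspension and 6.95 to 7.52 in control. The part of these cells in the member values was not tested.

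After 3.5 hours of weight bearing, Ppargc1a was higher than in suspension on all 5 probe sets, by 0.96 to 1.37 log2 units (1.95-fold to 2.59-fold). No other member passed. Thus 5 of 9 member probe sets rose and 0 fell, where 0.579% of all probe sets were called (83 higher and 3 lower). The groups of 3 of the 5 did not overlap, against 1.43% of all probe sets. These 5 are repeat readings of 1 gene. By the probe set of each gene with the highest mean, 1 of the 5 member genes was called, against 0.547% of all genes.

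On 1460336_at, reloaded replicates 14, 15, 16, 18 and 33 read 9.41, 8.17, 7.63, 8.18 and 6.89 log2 units, and suspension replicates 8, 9, 11, 25 and 30 read 6.61, 6.65, 7.12, 6.74 and 6.73. Reloaded replicate 14 stood highest and reloaded replicate 33 lowest, below suspension replicate 11. The means of 8.06 ± 0.92 in reloaded and 6.77 ± 0.21 in suspension (SD, n = 5 each) differed by 1.29 ± 0.28 (SE, limma adjusted p = 0.0352). On 1437751_at, reloaded replicates 14, 15, 16, 18 and 33 read 9.09, 8.12, 7.91, 8.76 and 7.41 and suspension replicates 8, 9, 11, 25 and 30 read 6.73, 7.27, 7.17, 7.12 and 6.99. Here every reloaded array was above every suspension array, and the difference was 1.20 ± 0.23 (limma adjusted p = 0.0110). On 1434099_at, reloaded replicates 14, 15, 16, 18 and 33 read 7.30, 6.35, 6.41, 6.94 and 6.00, against 4.60, 5.20, 5.64, 5.69 and 5.00 in suspension replicates 8, 9, 11, 25 and 30. The difference of 1.37 ± 0.23 (limma adjusted p = 0.00316) is the largest among the 5, and in the calf experiment only reloaded arrays lay above the filter value. On 1456395_at, reloaded averaged 6.74 ± 0.62 and suspension 5.77 ± 0.24 (0.96 ± 0.20, limma adjusted p = 0.0240). On 1434100_x_at, reloaded averaged 6.82 ± 0.52 and suspension 5.84 ± 0.32 (0.98 ± 0.20, limma adjusted p = 0.0248), with reloaded replicate 33 at 6.22 and suspension replicate 11 at 6.23.

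Replicate 14 was the highest of the reloaded arrays on all 5 probe sets and replicate 33 the lowest on all 5. Without both of them, all 5 probe sets were called (1460336_at at 1.22, limma adjusted p = 0.000153). Both were picked as the ends of the group's range. Leaving them out narrows the spread, so this is no check of the calls. The calls of 1437751_at and 1434099_at held with any single array left out. That of 1460336_at ended without reloaded replicate 15 or 18 or suspension replicate 8, 9, 25 or 30 (adjusted p up to 0.116), that of 1434100_x_at without reloaded replicate 14, 15 or 18 or suspension replicate 8, 9 or 30 (up to 0.0866), and that of 1456395_at without reloaded replicate 15 or 18 or suspension replicate 8 or 30 (up to 0.0875). With a robust variance trend, a spread estimated for each group, or suspension replicates 8 and 9 left out, only 1434099_at was still called. The 8 slow fibre markers, 0 of which were called, averaged 10.9, 11.4, 11.3, 11.6 and 11.6 log2 units in reloaded replicates 14, 15, 16, 18 and 33, against 11.1 to 11.4 over the suspension arrays. Replicate 14, highest in Ppargc1a, was lowest in these markers, and replicate 18, second highest in Ppargc1a, was highest in them. Of 8 tested tendon and fibroblast markers 1 rose, and the mean of the 9 measured ones was 8.83 to 9.19 in reloaded and 8.44 to 9.02 in suspension. Schwann cell and adipocyte markers had 0 calls by limma, with 3 of 4 and 4 of 7 at an unadjusted p under 0.05. Schwann cell means were 7.79 to 9.10 in reloaded and 8.54 to 9.04 in suspension. Over the 8 measured adipocyte markers the means were 7.06 to 7.63 in reloaded and 7.48 to 7.82 in suspension. The part of these cells and fibres in the member values was not tested.

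The other members moved little on reloading. Ppara averaged 6.89 ± 0.17 in reloaded and 6.61 ± 0.18 in suspension (SD, n = 5 each), a difference of 0.28 ± 0.12 (SE, limma adjusted p = 0.479). Esrra averaged 7.49 ± 0.05 in reloaded and 7.28 ± 0.20 in suspension (0.21 ± 0.09, limma adjusted p = 0.478). Ppargc1b averaged 8.07 ± 0.27 in reloaded and 8.30 ± 0.07 in suspension (-0.23 ± 0.10, limma adjusted p = 0.487). Each of these had an unadjusted p under 0.05, and none was near the adjusted threshold. Ppard differed by -0.03, with a 95% interval from -0.30 to 0.23.

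**Figure D2:**
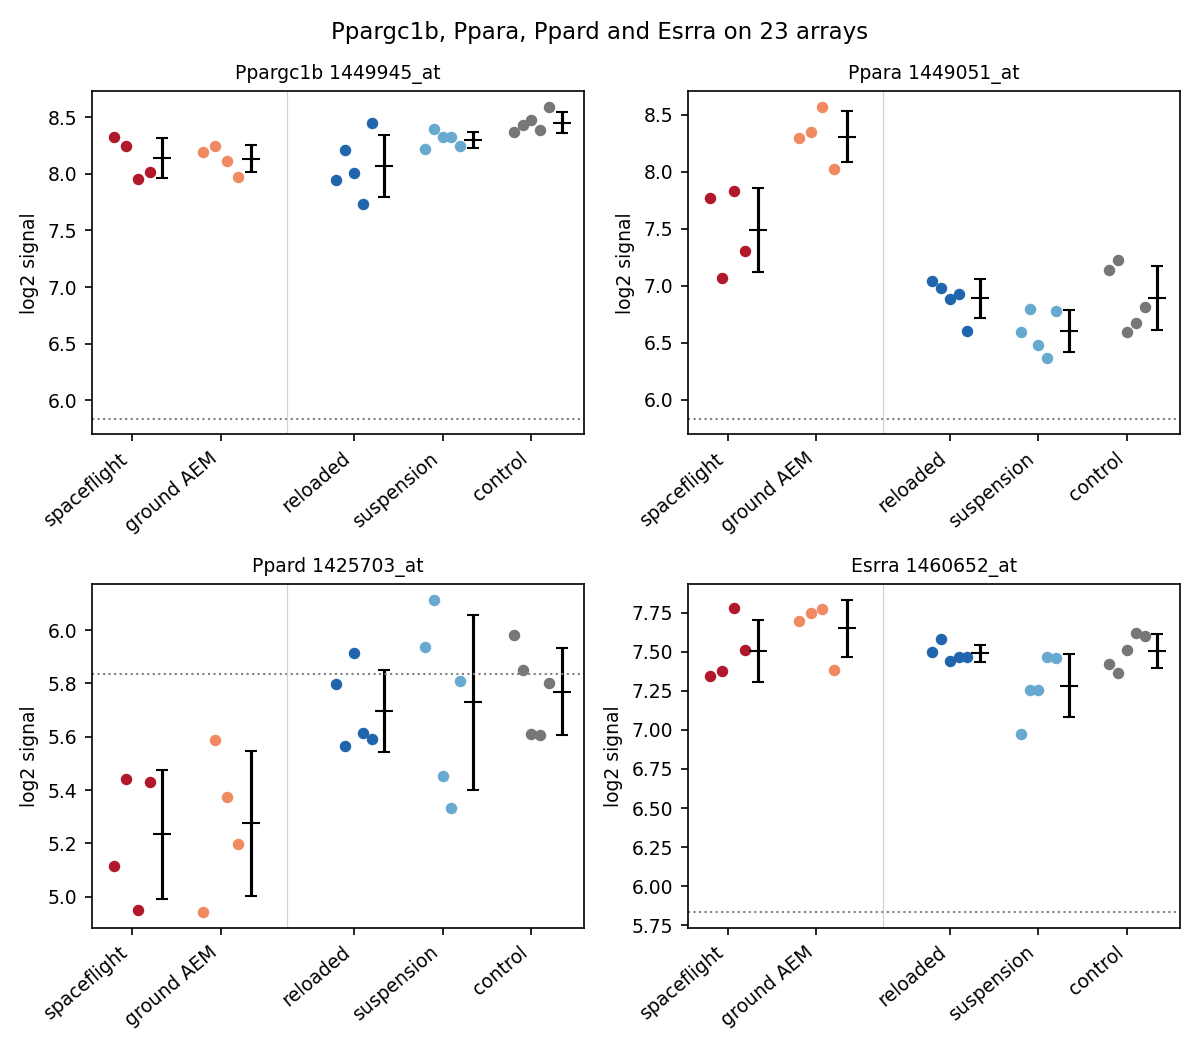
Log2 signal of Ppargc1b, Ppara, Ppard and Esrra on each of the 23 arrays, 1 point per array, with the group mean and SD as a black bar and the filter value of 5.83 as a dotted line. Ppara is lower in spaceflight than in ground AEM without overlap, and in the calf experiment the groups of all 4 genes overlap in every comparison.

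Compared with untreated control muscle, reloaded muscle had higher Ppargc1a on 4 of 5 probe sets. Of the 9 member probe sets 4 rose and 0 fell, where 0.337% of all probe sets were called (40 higher and 10 lower), and the groups of those 4 did not overlap, against 2.48% of all probe sets. These 4 read 1 gene. By the probe set of each gene with the highest mean, 0 of the 5 member genes were called, against 0.307% of all genes. This comparison and the previous one share the reloaded arrays, and the suspension comparison shares the control arrays with it. On 1456395_at, reloaded replicates 14, 15, 16, 18 and 33 read 7.61, 6.67, 6.24, 7.06 and 6.10, against 5.65, 5.61, 5.52, 5.61 and 5.68 in control replicates 1, 2, 19, 21 and 22. All 5 control arrays lay below the filter value and all 5 reloaded arrays above it, so the control level and its spread are readings of low signal. The difference was 1.12 ± 0.20 (SE, limma adjusted p = 0.0119). The other called probe sets were 1437751_at (1.19, adjusted p = 0.0231), 1434099_at (1.21, adjusted p = 0.0206) and 1434100_x_at (0.99, adjusted p = 0.0349), all from limma. 1460336_at differed by 1.25 ± 0.28 (limma adjusted p = 0.0657), and its reloaded replicate 33, at 6.89, lay below control replicate 22, at 6.98. Without reloaded replicates 14 and 33, the ends of the group's range, 1460336_at was called (1.19, limma adjusted p = 0.000389). That choice narrows the spread and is no check of the difference.

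These calls rest on few arrays: without reloaded replicate 18 none of the 4 was kept, and without reloaded replicate 33 there were 6 member calls, all 5 Ppargc1a probe sets higher and Ppargc1b lower (limma adjusted p = 0.0175 for Ppargc1b). Leaving out reloaded replicate 14 or control replicate 19 or 21 also ended those of 1437751_at, 1434100_x_at and 1434099_at; control replicate 2 ended 1434100_x_at and 1434099_at, and control replicate 1 or reloaded replicate 15 ended 1434100_x_at (adjusted p up to 0.127). Ppargc1b read 7.95, 8.21, 8.01, 7.73 and 8.45 in reloaded replicates 14, 15, 16, 18 and 33, and 8.37, 8.44, 8.48, 8.39 and 8.59 in control replicates 1, 2, 19, 21 and 22. Reloaded replicate 33, lowest in Ppargc1a, was the highest reloaded array in Ppargc1b. The difference of -0.38 ± 0.10 (SE, limma adjusted p = 0.158) did not pass, and with array weights it did (-0.44, limma adjusted p = 0.0340). Ppara differed by -0.00 (95% interval from -0.25 to 0.25), Esrra by -0.01 and Ppard by -0.07. In the same comparison 0 markers of other cells were called by limma, with 5 of 8 slow fibre, 3 of 4 Schwann cell, 3 of 8 endothelial and 1 of 6 macrophage markers at an unadjusted p under 0.05. Slow fibre means were 10.9 to 11.6 in reloaded and 11.6 to 11.7 in control, Schwann cell means 7.79 to 9.10 in reloaded and 7.75 to 8.12 in control, and endothelial means 7.09 to 7.28 in reloaded and 7.25 to 7.38 in control. The part of these cells in the member values was not tested.

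**Figure D3:**
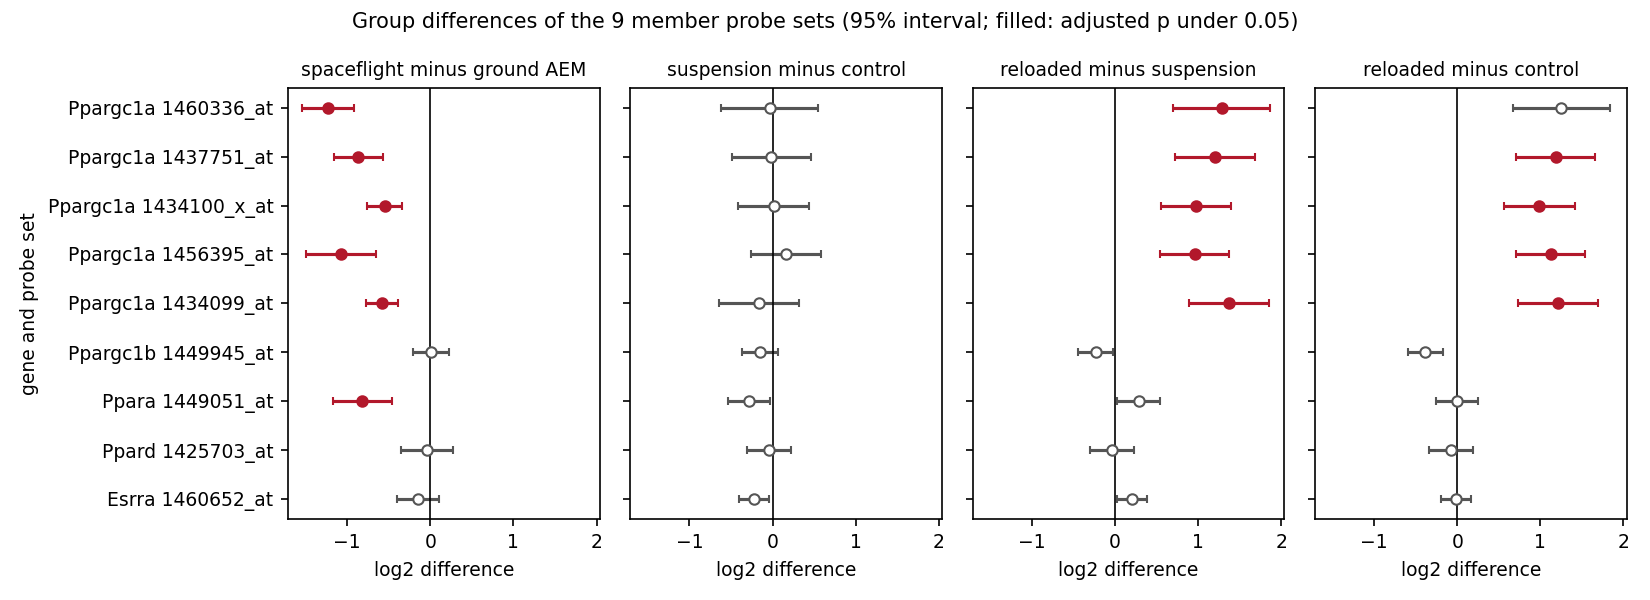
Log2 differences of the 9 member probe sets in the 4 group comparisons, with 95% intervals; filled red points have an adjusted p under 0.05. The 5 Ppargc1a points lie below 0 in the flight comparison, around 0 in suspension and above 0 in both comparisons of reloaded muscle, while Ppara is filled in the flight comparison alone.

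The effects of flight and of the calf treatments were also set against each other in a fit of all 23 arrays, each effect taken within its own experiment. The flight effect lay below the effect of reloaded against control on all 5 Ppargc1a probe sets, by -2.48 on 1460336_at, -2.06 on 1437751_at, -1.54 on 1434100_x_at, -2.20 on 1456395_at and -1.79 on 1434099_at (limma adjusted p at most 0.00113), and on Ppara by -0.81 (limma adjusted p = 0.0291). Thus 6 of 9 were called lower, on 2 genes, where 3.27% of all probe sets were called in either direction. The Ppargc1a calls held with any array left out; that of Ppara ended without reloaded replicate 14, 15 or 18, control replicate 19 or 21, spaceflight replicate 9 or 11 or ground AEM replicate 3 (adjusted p up to 0.0824). Between the flight and suspension effects, 1 of 9 was called lower, 1456395_at (-1.24, limma adjusted p = 0.0377), where 1.58% of all probe sets were called. On that probe set 0 of 4 spaceflight and 0 of 5 control arrays lay above the filter value, 3 of 5 suspension arrays and 4 of 4 ground AEM arrays did, and it passed the filter through the groups where it is high. On 1460336_at that difference was -1.19 (limma adjusted p = 0.126) and on Ppara -0.53 (limma adjusted p = 0.259). The call on 1456395_at ended without any of 11 single arrays (adjusted p up to 0.102): the 5 control arrays, suspension replicates 9 and 11, ground AEM replicate 3, and spaceflight replicates 9, 10 and 11. A flight effect that passes beside a suspension effect that does not is therefore not shown to differ from it on the other 8 probe sets.

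The 5 Ppargc1a probe sets were compared with each other, since probe sets of a gene can read different transcript ends or variants. Where each sits in the gene was not analysed here. The platform annotation names the same source sequence for 1434100_x_at and 1434099_at. Within groups the 5 probe sets varied together, with correlations over the 23 arrays from 0.63 to 0.90. These are descriptions over arrays, and whether the arrays were normalized together is not given. The flight difference was largest on 1460336_at (-1.23) and 1456395_at (-1.08) and smallest on 1434100_x_at (-0.55) and 1434099_at (-0.58). The reloading difference was largest on 1434099_at (1.37) and smallest on 1456395_at (0.96). Of 10 pairs in each of 4 comparisons, 0 of the 40 tests passed after Benjamini-Hochberg adjustment in an exact two-sided permutation test over samples (smallest adjusted p = 0.181). Unadjusted p were under 0.05 for 5 pairs in flight and 2 in reloading, and 0 in suspension and in reloaded against control. With 4 arrays against 4 the smallest exact p is 0.0286, and with 5 against 5 it is 0.00794. The 5 flight pairs under 0.05 all sat at this smallest p. A flight pair there can pass only if most of the 40 tests have p as low, so the flight pairs could hardly pass. Their failure to pass does not show that the probe sets moved alike. The same limit holds for the flight pairs of genes below. In flight, the difference of 1460336_at minus that of 1434100_x_at was -0.68 (exact permutation p = 0.0286, adjusted p = 0.181). The same test between genes, added after the data were seen, also passed for 0 of 40 (smallest adjusted p = 0.0847); Ppargc1a moved below Ppargc1b by -1.23 in flight (exact permutation p = 0.0286) and above it by 1.52 on reloading (exact permutation p = 0.0238), both with adjusted p = 0.0847.

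Genes that act with or on PGC-1 proteins were read next, by the probe set of each gene with the highest mean. The shares of all 9133 genes called were 5.51% in flight, 0.339% in suspension, 0.547% in reloading and 0.307% in reloaded against control. Of 35 tested partners and regulators, 2 rose and 0 fell in flight (median log2 difference 0.03, against -0.01 over all genes). Foxo1, a transcription factor that PGC-1alpha binds and that drives muscle atrophy genes, averaged 9.65 ± 0.21 in spaceflight and 8.28 ± 0.38 in ground AEM (SD, n = 4 each; 1.37 ± 0.16, limma adjusted p = 0.000543). Its probe sets 1416982_at (1.26) and 1416983_s_at (1.14) also rose, while 1456529_at differed by -0.00; in reloaded muscle 1416983_s_at was called above control as well (0.62, limma adjusted p = 0.0461). Nr1d1, a clock repressor, rose by 0.37 (limma adjusted p = 0.0238); its call ended without ground AEM replicate 3 or 4 or spaceflight replicate 8 or 11 (adjusted p up to 0.0713).

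Nrip1 encodes RIP140, a corepressor that counters PGC-1alpha on oxidative genes. It averaged 8.31 ± 0.26 in reloaded, 7.68 ± 0.32 in suspension and 7.53 ± 0.09 in control muscle (SD, n = 5 each). It rose by 0.64 over suspension (limma adjusted p = 0.0268) and by 0.78 over control (limma adjusted p = 0.00904), the 1 of 35 partners called in each comparison. The rise over suspension ended without reloaded replicate 14, 15 or 18 or suspension replicate 8, 9, 25 or 30 (adjusted p up to 0.119). On its other probe set, 1449089_at, reloaded muscle differed by 0.32 from suspension (limma adjusted p = 0.496) and by 0.69 from control (limma adjusted p = 0.0308). In flight the chosen probe set differed by -0.08 and 1449089_at rose by 0.84 (limma adjusted p = 0.0168). In suspension 0 of 35 partners were called by limma, with 2 at an unadjusted p under 0.05. The partners Nrf1, Gabpa, Esrrg, Esrrb, Rxra and Rxrg, the coactivators Pprc1 and Lpin1, the factor Mef2c and the mitochondrial DNA factor Tfam were called in no comparison. Their flight differences ran from -0.31 (Gabpa) to 0.26 (Lpin1). Pparg and the deacetylase Sirt1 lay below the filter and differed by -0.11 and 0.23 in flight, without the filter and not called. Prkaa2, Cpt1b and Fndc5 were not analysed here.

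The called target genes of the receptors did not share a direction across comparisons. Of 34 tested PPAR target genes, 3 rose and 0 fell in flight, with a median of -0.08. In that comparison 14 of 34 lay above 0, and 12 had a limma unadjusted p under 0.05. The mitochondrial carrier Ucp3 averaged 10.15 ± 0.25 in spaceflight and 9.35 ± 0.37 in ground AEM (0.80, limma adjusted p = 0.0142), and its other probe set differed by 0.58 (limma adjusted p = 0.186). Angptl4, an inhibitor of lipoprotein lipase, rose by 0.70, and Txnip, an inhibitor of glucose uptake, by 0.42, with another probe set at 0.24 that was not called. Angptl4 is made by adipocytes too, whose markers were higher in spaceflight as given above. The part of these cells in the values of this list was not tested. In suspension 1 of the 34 fell, Fabp3, the fatty acid binding protein of muscle, with 10.90 ± 0.19 in suspension and 11.93 ± 0.31 in control (SD, n = 5 each; -1.03, limma adjusted p = 0.00210). The list's median was -0.20, against 0.00 over all genes, with 6 of 34 above 0 and 20 at a limma unadjusted p under 0.05. On reloading 0 of 34 were called by limma, with 2 at an unadjusted p under 0.05, and reloaded against control had 2 lower, Fabp3 (-0.75) and the lipid droplet protein Plin5 (-0.65). These last 2 calls ended without reloaded replicate 14 or 18 or control replicate 19, 21 or 22, and Plin5 also without reloaded replicate 16 or 33 (adjusted p up to 0.141). In reloaded against control the list's median was -0.22, with 8 of 34 above 0 and 17 at a limma unadjusted p under 0.05. Pdk4, the kinase that holds back pyruvate oxidation, differed by 0.10 in flight, -0.69 in suspension and 0.74 on reloading, none of them called, and Acadm and Cd36 were called in no comparison.

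Of 54 tested mitochondrial target genes of ERRalpha and the NRF factors, 2 fell in flight and 0 rose, with a median of -0.10. In flight 7 of 54 lay above 0, and 12 had a limma unadjusted p under 0.05. The 2 that fell were the mitochondrial creatine kinase Ckmt2 (-0.37, limma adjusted p = 0.0109) and the complex I subunit Ndufb5 (-0.30, limma adjusted p = 0.0421). The other Ndufb5 probe set differed by -0.19 and was not called, and the call of Ndufb5 ended without ground AEM replicate 3 or 4 or spaceflight replicate 9, 10 or 11 (adjusted p up to 0.115). In suspension, reloading and reloaded against control 0 of 54 were called by limma, with 12, 1 and 8 at an unadjusted p under 0.05, and the medians were -0.10, 0.03 and -0.08. In that order, 7, 34 and 6 of 54 lay above 0. Cytochrome c, Cycs, differed by -0.22 in flight, citrate synthase, Cs, by -0.09, the oxidase subunit Cox4i1 by -0.10 and the fusion protein Mfn2 by -0.17, none of them called.

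Of 31 tested genes in a list linked to PGC-1alpha in muscle, 4 fell and 1 rose in flight, with a median of -0.09. The ketone enzyme Bdh1 averaged 6.93 ± 0.75 in spaceflight and 8.37 ± 0.37 in ground AEM (-1.44, limma adjusted p = 0.0126). Vegfa, a growth factor of vessels, fell on both of its probe sets (-0.59 and -0.70), and the secreted protein Metrnl fell by 0.56 on the log2 scale. Myl2, a myosin light chain of slow fibres, differed by -0.42 and Gpt2, an alanine aminotransferase, by 0.42, both called. Myl2 is also the 1 slow fibre marker that fell in flight above. The other Gpt2 probe sets, 1434542_at (0.29) and 1438385_s_at (0.20), were not called. The calls of Myl2 and Gpt2 ended without ground AEM replicate 3 or 4 or spaceflight replicate 8 or 9, and Myl2 also without spaceflight replicate 11 (adjusted p up to 0.0783). In suspension, where 0 of 5 Ppargc1a probe sets were called, 4 of the 31 fell and 1 rose as well. Bdh1 averaged 7.22 ± 0.34 in suspension and 8.60 ± 0.04 in control (SD, n = 5 each; -1.38, limma adjusted p = 0.000110). The calcium store protein Casq2 (-0.64), lactate dehydrogenase B, Ldhb (-0.47), and the slow light chain Myl3 (-0.47) also fell, and Gpt2 rose by 0.60. Casq2 and Myl3 are also the 2 slow fibre markers called in suspension above. On the other Ldhb probe sets, 1455235_x_at was called (-0.53), and 1434499_a_at (-0.61) and 1448237_x_at (-0.45) were not. The other Myl3 probe sets, 1428266_at (-0.61) and 1427769_x_at (-0.39), were called. Of the other Gpt2 probe sets, 1438385_s_at (0.60) was called and 1434542_at (0.40) was not. The calls given next, with single arrays left out, are those of the chosen probe sets. The call of Ldhb ended without suspension replicate 8 or 30 or control replicate 1, 2, 21 or 22 (adjusted p up to 0.106), that of Myl3 without control replicate 21 or 22 (0.0660) and that of Gpt2 without control replicate 22 (0.0502).

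On reloading, where all 5 Ppargc1a probe sets rose, 0 of these 31 genes were called by limma, with 3 at an unadjusted p under 0.05 and a median of 0.03. Vegfa differed by 0.20 and the glucose transporter Slc2a4 by 0.03. Against control, reloaded muscle still had lower Bdh1 (-1.03) and Ldhb (-0.58) and higher Gpt2 (0.54). The call of Gpt2 ended without reloaded replicate 14 or 18 or control replicate 1, 21 or 22 (adjusted p up to 0.0889).

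**Figure D4:**
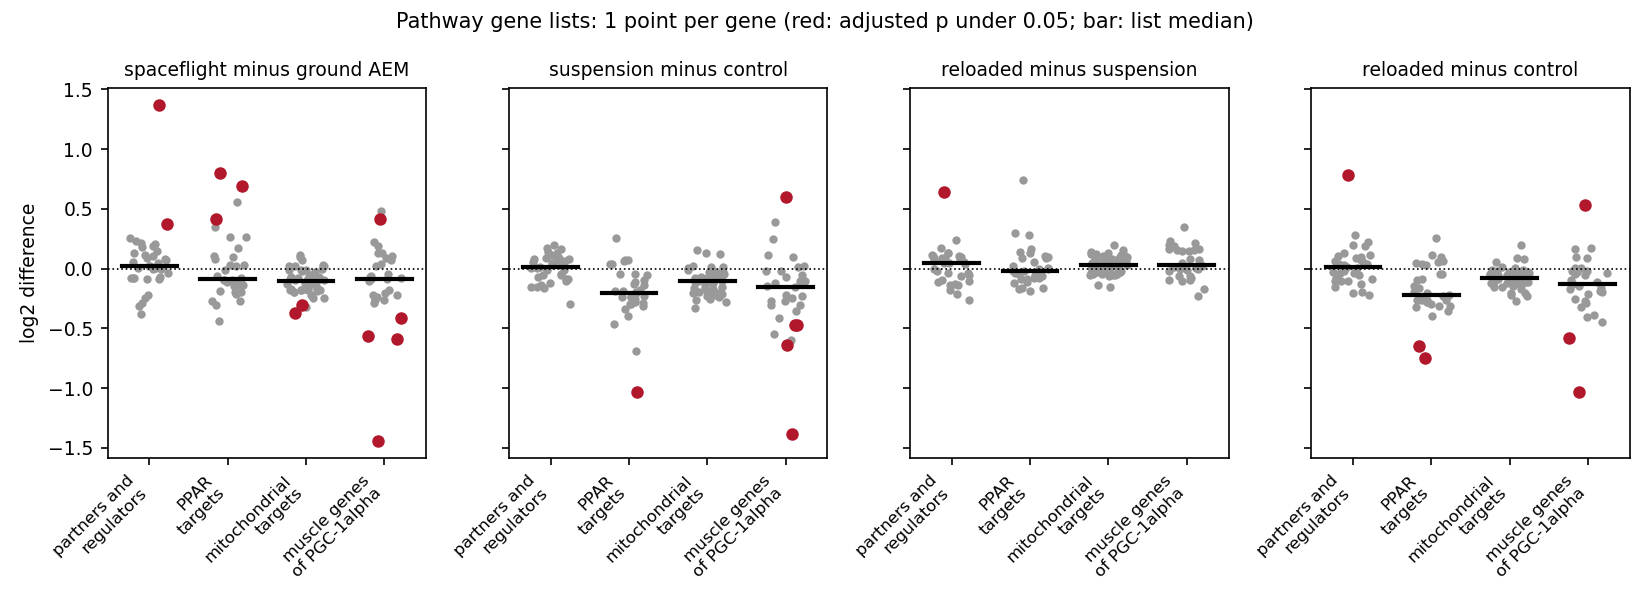
Log2 differences of the genes of 4 pathway lists in the 4 group comparisons, 1 point per gene, with red points for an adjusted p under 0.05 and a black bar for the list median. Few genes are red in any list, and on reloading only Nrip1 among the partners is.

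The genes whose pattern over the 23 arrays was most like that of each member were found by Pearson correlation after each experiment was centred on its own mean, and are the highest among all genes by choice. For Ppargc1a they were the channel protein Clic4 (r = 0.85), the amino acid carrier Slc38a2 (0.83), the clotting regulator Thbd (0.81), the GTPase Rhoa (0.80) and the proton pump subunit Atp6v1a (0.80). With group means removed these were 0.36 to 0.61, so much of the likeness lay between groups. For Ppara they were Crim1 (0.83), Tagln2 (0.83), Taok1 (0.80), Tgfb1 (0.79) and Pgap2 (0.77). For Ppargc1b they were the complex I subunits Ndufa7 (0.77) and Ndufs5 (0.74), Fmc1 (0.76), Slc25a39 (0.71) and Dbi (0.71), and for Esrra catalase, Cat (0.80), Polb (0.77), Bex1 (0.76), Hacd1 (0.76) and Cnih4 (0.76). For Ppard they were Pcare (0.84), Capn8 (0.82), Csdc2 (0.82), Fndc10 (0.80) and Olfr64 (0.79). With group means removed these 5 were 0.80 to 0.90, so this likeness lay between arrays within groups. Ppard exceeded the filter value on 5 of 23 arrays and correlated with the array range, as given above. With group means removed, Ppargc1a 1460336_at correlated at 0.34 with Ppara, 0.15 with Esrra, 0.09 with Ppard and -0.28 with Ppargc1b, as descriptions over 23 arrays.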

How the data were processed

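Muscle RNA was hybridised to 1 Affymetrix array per sample. The authors deposited log2 values (2.49 to 14.2). Per the submitters' processing notes, the authors used RMA and MAS5. Which of these gave the table, in which version, and if all arrays were processed jointly is not given in the sources used here. Values were analysed as deposited. The table holds 22690 probe sets, and 64 controls among them were not used. Symbols came from the platform annotation, which can be old: 20380 probe sets have 1 symbol, 691 several and 1555 none.

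Differences were tested two-sided with limma 3.58.1 (lmFit, eBayes) in R 4.3.3, and called at an adjusted p under 0.05 (Benjamini-Hochberg) across the 14849 probe sets past the filter. The 8 flight arrays were fitted alone, the 15 calf arrays shared 1 spread, and differences of effects used all 23 arrays. The test was checked on simulated data. Precision is limited by the number of arrays, with a median standard error of 0.09 log2 units in each group comparison. Genes were represented by the probe set with the highest mean. Named were all member probe sets, up to 6 called genes per list and comparison with the largest change, a set of fixed genes, and the 5 genes most like each member. The members, lists, motifs and alternatives were chosen with earlier results of these data known, and second probe sets of named genes were picked after their values were seen. With no scan date or array batch in the labels or files, batches could not be tested. The alternatives were other filters, normalizations, variance models, weights, thresholds and sets of arrays.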

Additional observations from a re-analysis of the deposited data

Results flagged for a closer look

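Within the groups of 4 or 5 arrays, 2 of 45 sets of member values held an array far from the rest by Dixon's ratio, and chance alone gives about 1 in 20. On Ppargc1a 1460336_at, suspension replicate 11 read 7.12 log2 units, with the nearest suspension array at 6.74. On Ppargc1a 1456395_at, ground AEM replicate 3 read 7.43, with the nearest ground AEM array at 6.51, and the flight call on this probe set held without it.

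The effects of the 2 experiments differed by limma's test of the difference itself in 7 cases. Flight minus the effect of reloaded against control was -2.48, -2.06, -1.54, -2.20 and -1.79 on Ppargc1a 1460336_at, 1437751_at, 1434100_x_at, 1456395_at and 1434099_at, and -0.81 on Ppara. Flight minus suspension was -1.24 on Ppargc1a 1456395_at. The experiments differ in muscle (gastrocnemius or whole calf), housing and array range, which cannot be told apart from the treatments here, and the exchanged sample descriptions would turn each of these differences into a sum.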

How the results depend on the processing

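Counts are given as member probe sets called and, in brackets, all probe sets called; with all arrays they were 6 (945) in flight, 0 (56) in suspension, 5 (86) in reloading, 4 (50) in reloaded against control, 1 (234) in flight minus suspension and 6 (486) in flight minus reloaded. Testing 1 probe set per gene gave 2 (515), 0 (34), 1 (53), 0 (29), 0 (116) and 2 (250) in that order, and averaging each gene's probe sets gave 2 (484), 0 (17), 1 (46), 1 (29), 0 (139) and 2 (280); by construction Ppargc1a is then 1 feature. An adjusted p under 0.01 gave 5 (343), 0 (7), 1 (51), 0 (21), 0 (83) and 5 (186), and a change of at least 1.5-fold gave 0 (9), 0 (0), 0 (15), 0 (5), 0 (4) and 3 (19). With trend and robust estimation there was 1 member call in reloading, 1 in reloaded against control and 0 in flight minus suspension. The last was also 0 with quantile normalization and with the filter at the 60th percentile. Array weights gave 134 calls over all probe sets in reloaded against control and 780 in flight minus reloaded. A fit of the compared groups alone gave 2 member calls in reloading and 86 calls over all probe sets in reloaded against control. Without suspension replicates 8 and 9 there were 8 calls over all probe sets in suspension, 1 (54) in reloading and 0 member calls in flight minus suspension. Among the alternatives added after seeing the data, a spread for each group gave 25 calls over all probe sets in suspension, 1 member call in reloading, 111 over all probe sets in reloaded against control and 0 member calls in flight minus suspension; leaving out reloaded replicates 14 and 33 gave 54 calls over all probe sets in reloading and 26 in reloaded against control. The cause of these shifts was not tested.

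With single arrays left out, member calls ran from 6 to 6 in flight, 0 to 0 in suspension, 2 to 5 in reloading, 0 to 6 in reloaded against control, 0 to 1 in flight minus suspension and 5 to 7 in flight minus reloaded. Calls over all probe sets ran from 565 (without ground AEM replicate 3) to 1007 in flight, 14 (without control replicate 22) to 70 in suspension, 58 to 104 in reloading, 24 (without reloaded replicate 14) to 64 in reloaded against control, 166 to 311 in flight minus suspension and 329 to 565 in flight minus reloaded. Of the single values under all alternatives, 6073 kept direction and side of the threshold, 258 lost and 29 gained a call, 267 uncalled values changed sign and 0 called values did. No paired analysis was possible because groups compared within an experiment share no replicate number.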
